A study of Mus musculus with 6 samples.

Results

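The genes described here are 33 members of the cholesterol and fatty acid synthesis pathways and of the SREBP system that controls them, taken from a list of gene names by pathway role. The list was chosen with earlier results of these data known. Of 19938 genes with a single-symbol transcript cluster (the set of probes that reports 1 transcript on the array) all 33 were measured, and where a gene had several clusters the 1 with the highest mean over the 6 arrays was used. The study lowered *Paupar*, a long noncoding RNA transcribed upstream of *Pax6*, in N2A cells, an adherent mouse neuroblastoma line. Control cultures (n = 3) were transiently transfected with a non-targeting vector and knockdown cultures (n = 3) with a *Paupar* knockdown construct that expresses a short hairpin RNA. Both groups received 1.5 µg of plasmid with FuGENE 6, grew in medium with 10% fetal bovine serum and were harvested about 2.5 days later. For the harvest the study's methods give a range of 2 to 3 days after transfection. The deposited values are log2 RMA values, so a difference of 1 is a 2-fold change. Every culture comes from 1 cell line, a transient transfection can leave untransfected cells among the others, and the level of *Paupar* itself was not analysed here. In such bulk RNA, fewer cells that express a gene and less of its RNA per cell cannot be told apart.

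Cells make cholesterol from acetyl-CoA through mevalonate, isoprenoids and squalene, and they make fatty acids from the same acetyl-CoA through malonyl-CoA. SREBP transcription factors, encoded by *Srebf1* and *Srebf2*, drive both routes. They are held in the endoplasmic reticulum by the escort protein SCAP and the INSIG retention proteins when sterols are plentiful, and they are carried to the Golgi and cleaved into active factors when sterols fall. The product of *Srebf2* acts chiefly on cholesterol genes and that of *Srebf1* chiefly on fatty acid genes, which liver X receptors also influence. In the nervous system cholesterol and polyunsaturated fatty acids are major parts of membranes and myelin, and cholesterol is made locally.

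Of the 33 members, *Elovl6* and *Fads1* fell upon *Paupar* knockdown, each about 1.5-fold, and no member rose. Both act on the length or the double bonds of fatty acid chains. None of the cholesterol enzymes passed the test. *Tm7sf2*, *Scd1* and *Acly* had differences of -0.59, -0.53 and -0.42 that missed the threshold (limma, adjusted p = 0.0826, 0.0548 and 0.0601). In all, 21 members passed the variance filter and were tested, 19 of them missed the threshold, and 12 did not pass the filter. An unadjusted limma p under 0.05 was found for 5 members (15.2%), all lower in the knockdown, and for 13.9% of all named genes. Among all 9969 genes that passed the filter, 5.16% fell and 2.39% rose. The change was below 0 for 25 of the 33 members, as it was for 41.6% of all named genes, and the knockdown values lay below all control values for 9 members (27.3%) and above them for 1, against 10.8% and 12.8% of all named genes. The median log2 fold change was -0.11 over the members and 0.03 over all named genes. That median moved to -0.04 without control replicate 1, to -0.07 without knockdown replicate 1, to -0.17 without control replicate 2 and to -0.21 without knockdown replicate 3.

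**Figure D1:**
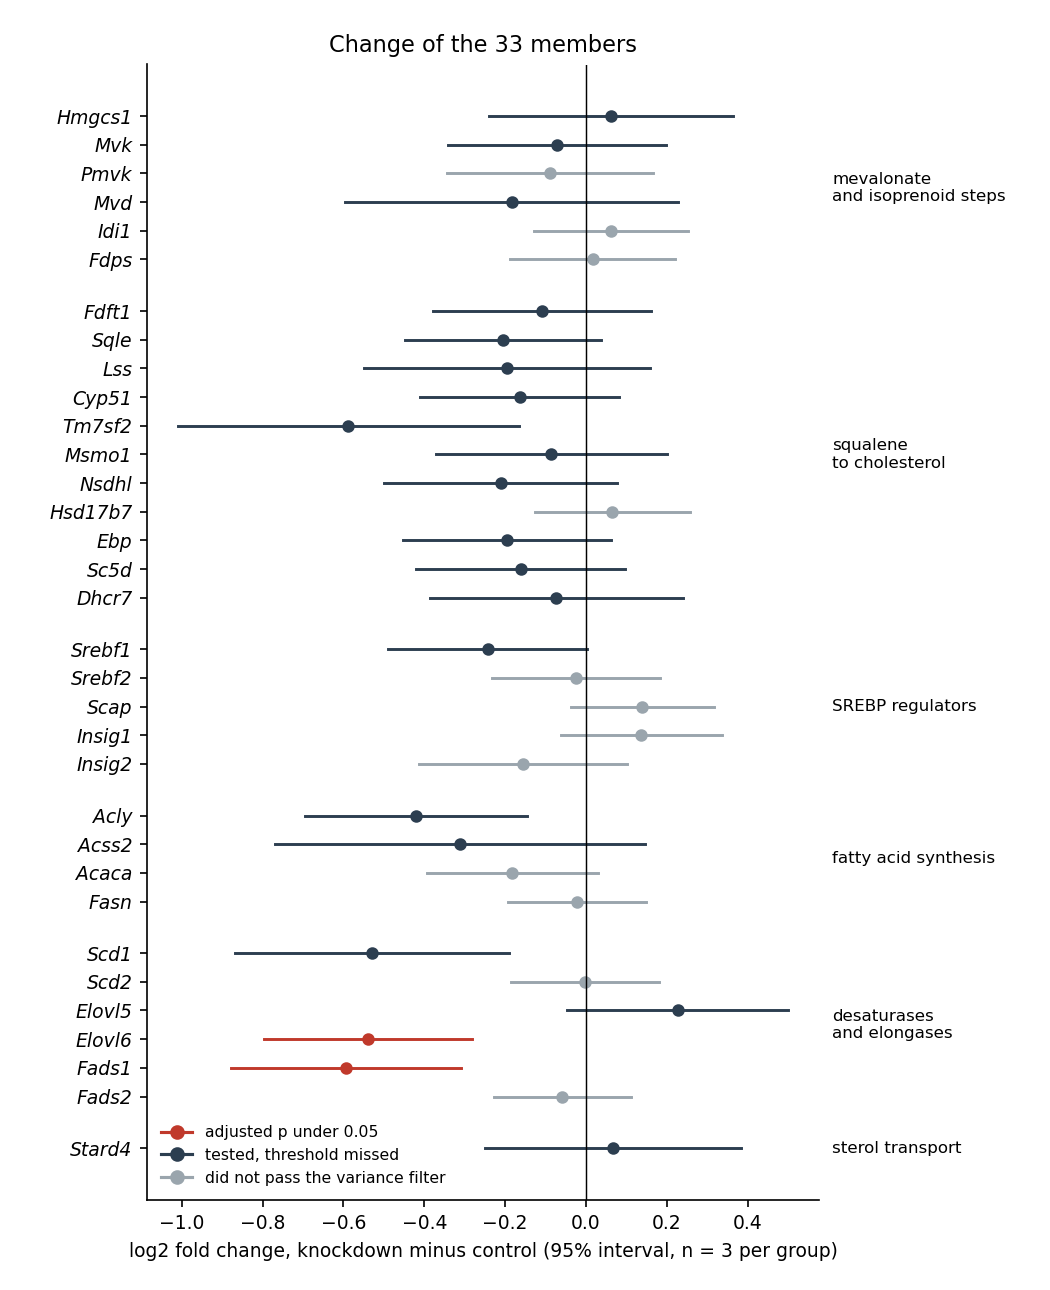
Log2 fold change of each of the 33 members, knockdown minus control (x axis), with its 95% interval from limma, grouped by role. Only *Elovl6* (-0.54) and *Fads1* (-0.59), in red, have an adjusted p under 0.05, and grey marks the 12 members that did not pass the variance filter.

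*Elovl6* encodes the elongase that lengthens palmitate to stearate. Its log2 value was 11.83, 11.80 and 11.95 on control replicates 1 to 3 and 11.23, 11.26 and 11.46 on knockdown replicates 1 to 3. Every knockdown value lay below every control value, with a gap of 0.33 between the groups. The log2 fold change was -0.54 (SE 0.12, limma adjusted p = 0.0184), which is 1.45-fold lower. *Fads1* encodes the delta-5 desaturase of long polyunsaturated fatty acids, which makes arachidonate. Its controls were nearly equal at 12.78, 12.72 and 12.80, and its knockdown values were 11.99, 12.08 and 12.45. Knockdown replicate 3 was closest to the controls and still lay 0.28 below the lowest of them. The log2 fold change was -0.59 (SE 0.13, limma adjusted p = 0.0190), 1.51-fold lower. The call of *Elovl6* was lost when control replicate 3 or either of knockdown replicates 1 and 2 was left out, and that of *Fads1* without any of these or control replicate 1 (largest limma adjusted p = 0.101 for both), while the changes stayed between -0.61 and -0.50 and between -0.73 and -0.50. Both calls were also lost when all clusters, unnamed ones included, entered the test (limma adjusted p = 0.163 and 0.177).

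The other desaturases and elongases did not pass. *Scd1*, a stearoyl-CoA desaturase that makes oleate, had 6.93, 6.89 and 7.07 in the controls and 6.19, 6.26 and 6.85 in the knockdown. The groups did not overlap, but knockdown replicate 3 was only 0.04 below the lowest control (log2 fold change -0.53, SE 0.16). Without that array *Scd1* passed, at -0.74 (limma adjusted p = 0.00521). The signal of its cluster was weak, at the 31.6th percentile of all named genes by mean. *Scd2*, the desaturase isoform known as the main one of the brain, had 14.14, 14.01 and 14.03 in the controls and 14.03, 14.02 and 14.13 in the knockdown. Its groups coincided, with a difference of 0.00 and a 95% interval from -0.18 to 0.18. Its signal was very strong, at the 99.9th percentile of all named genes by mean, and whether this limits the differences seen was not tested. *Fads2*, the delta-6 desaturase that acts before *Fads1*, had 12.87, 12.91 and 12.93 in the controls and 12.86, 12.86 and 12.81 in the knockdown, a difference of -0.06 (95% interval -0.23 to 0.11) with a gap of only 0.01 between the groups. *Elovl5*, which elongates polyunsaturated fatty acids, had a difference in the other direction (0.23, 95% interval -0.05 to 0.50, limma adjusted p = 0.263), with 12.43, 12.16 and 12.19 in the controls and 12.39, 12.41 and 12.65 in the knockdown. *Scd1* and *Scd2* are close paralogs, and whether probes of one also measure the other was not tested.

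**Figure D2:**
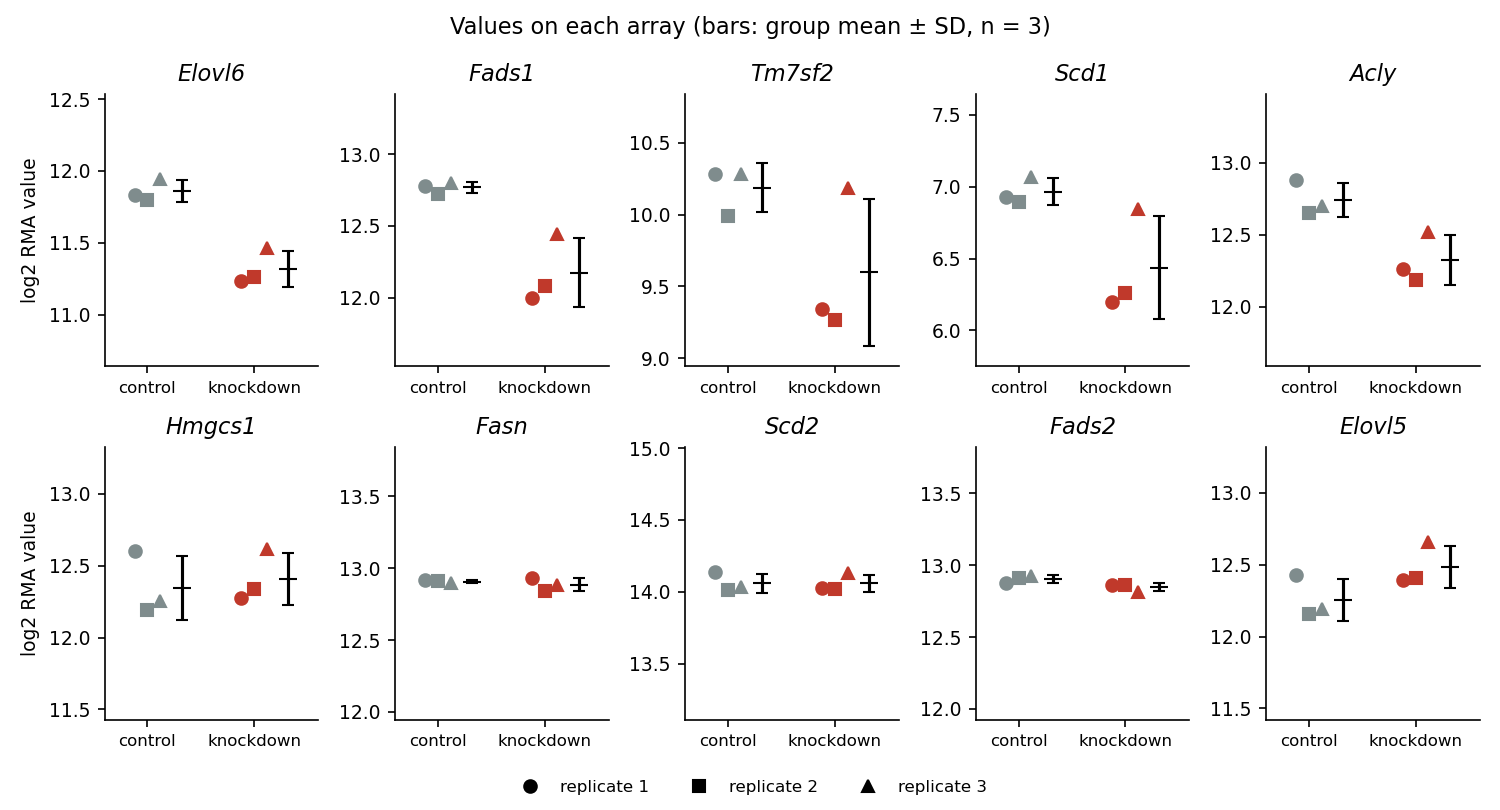
Log2 RMA value (y axis) of 10 members on each array, control in grey and knockdown in red, with the marker giving the replicate and bars giving the group mean ± SD (n = 3). *Elovl6* and *Fads1* separate by 0.33 and 0.28, whereas *Fasn*, *Scd2* and *Fads2* lie within narrow ranges in both groups.

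In 5 pairs, both members belong to the same family, and their changes were compared within each array, a comparison chosen after the values had been seen. The value of *Elovl6* minus that of *Elovl5* was -0.40 ± 0.18 in the controls and -1.17 ± 0.02 in the knockdown (mean ± SD, n = 3), a difference of -0.77 (SE 0.10). For *Fads1* minus *Fads2* the difference between groups was -0.54 (SE 0.16), and for *Scd1* minus *Scd2* it was -0.53 (SE 0.19). In each of these pairs all 3 knockdown arrays lay below all 3 control arrays. The pairs of regulators differed less: *Srebf1* minus *Srebf2* by -0.22 (SE 0.09) and *Insig1* minus *Insig2* by 0.29 (SE 0.09), again with no overlap. For *Srebf1* minus *Srebf2*, however, the groups almost touched, at -1.49153 on control replicate 1 and -1.49165 on knockdown replicate 1. Taken singly, 10.8% of all named genes had knockdown values below all control values and 12.8% above them. The share of other gene pairs without overlap was not computed, so these pairs cannot be set beside it. The exact permutation test (two-sided) gave p = 0.1 for each of the 5 pairs, also after adjustment over the 5, which is the smallest p that 3 arrays against 3 can give.

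**Figure D3:**
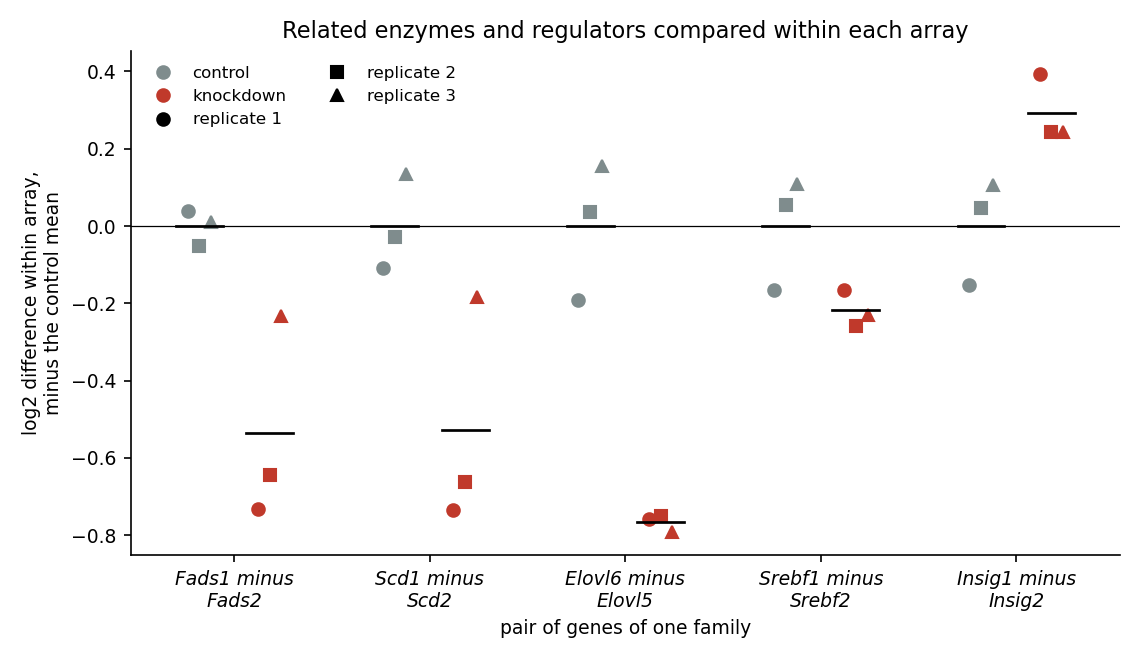
Log2 difference between the genes of each pair within an array, centred on the control mean (y axis), for the 5 family pairs (x axis); markers give the replicate and lines the group means. The knockdown means lie at -0.54, -0.53, -0.77, -0.22 and 0.29. No pair has overlapping groups, but those of *Srebf1* minus *Srebf2* almost touch. The pairs were chosen after the values had been seen, and the share of other gene pairs without overlap was not computed.

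The enzymes that supply and build saturated fatty acids were all measured with a change below 0, and none passed. *Acly*, which cleaves citrate to cytosolic acetyl-CoA, had 12.88, 12.66 and 12.70 in the controls and 12.26, 12.19 and 12.52 in the knockdown (log2 fold change -0.42, SE 0.13). Its groups did not overlap, with a gap of 0.13. Without knockdown replicate 3 *Acly* passed, at -0.52 (limma adjusted p = 0.0223). *Acss2*, which makes acetyl-CoA from acetate, spread widely within the controls (12.76, 11.87 and 12.16) and within the knockdown (11.67, 11.78 and 12.41), so that its difference of -0.31 had a 95% interval from -0.77 to 0.15. *Acaca*, the carboxylase that makes malonyl-CoA, differed by -0.18 in the cluster used and by -0.23 in a second cluster, and did not pass the variance filter. Its groups did not overlap in the cluster used, but the gap was only 0.00019. *Fasn*, the fatty acid synthase itself, was nearly constant, at 12.92, 12.91 and 12.89 in the controls and 12.93, 12.84 and 12.89 in the knockdown. Its difference of -0.02 had a 95% interval from -0.19 to 0.15.

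Of the 6 genes of the mevalonate and isoprenoid steps, 3 passed the variance filter and were tested, and none was called. Of the 6, 3 had a change above 0 and 3 below, and the groups overlapped for all of them. *Hmgcs1*, which makes the precursor HMG-CoA, had 12.60, 12.19 and 12.25 in the controls and 12.27, 12.34 and 12.61 in the knockdown. The highest control and the highest knockdown array were thus almost equal, and the difference was 0.06 (95% interval -0.24 to 0.36). *Mvd*, the mevalonate diphosphate decarboxylase, had a difference of -0.18 with the widest interval of the group (-0.60 to 0.23). The kinases *Mvk* and *Pmvk* differed by -0.07 and -0.09. The isomerase *Idi1* and the farnesyl diphosphate synthase *Fdps* differed by 0.06 and 0.02. A second cluster of *Idi1* gave 0.10.

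Of the 11 genes from squalene synthesis to cholesterol, 10 had a change below 0, 10 were tested and none passed. *Tm7sf2*, a sterol C14 reductase, had the largest difference: 10.28, 9.99 and 10.29 in the controls against 9.34, 9.27 and 10.19 in the knockdown. Replicates 1 and 2 of the knockdown lay well below the controls, and replicate 3 lay among them. Without knockdown replicate 3 the log2 fold change of *Tm7sf2* was -0.88 and passed (limma adjusted p = 0.00407). *Lbr*, a sterol C14 reductase outside the members, differed the other way, by 0.35 (limma adjusted p = 0.0705). Its knockdown values lay above all its controls, with a gap of 0.29. *Sqle*, the squalene epoxidase, and *Cyp51*, the lanosterol demethylase, were lower on all 3 knockdown arrays than on any control, by 0.11 and 0.03 at the gap, with log2 fold changes of -0.20 (limma adjusted p = 0.256) and -0.16 (0.368). *Nsdhl*, *Lss*, *Ebp* and *Sc5d*, a sterol dehydrogenase, the lanosterol synthase, a sterol isomerase and a sterol desaturase, had differences of -0.21, -0.20, -0.19 and -0.16. The squalene synthase *Fdft1* (-0.11, and -0.12 in a second cluster), the methyl sterol oxidase *Msmo1* (-0.09) and *Dhcr7* (-0.07), which completes cholesterol from its last precursor, differed less. *Hsd17b7*, a sterol ketone reductase, differed by 0.06 and did not pass the variance filter. The 95% interval of *Tm7sf2* ran from -1.01 to -0.17. Those of the other 10 genes included 0, and the lowest bound among them was that of *Lss*, at -0.55.

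Among the regulators *Srebf1* had the largest difference. Its values were 10.99, 10.97 and 11.08 in the controls and 10.76, 10.70 and 10.85 in the knockdown, with no overlap and a gap of 0.12. The log2 fold change of -0.24 (SE 0.12) did not pass (limma adjusted p = 0.195, 95% interval -0.49 to 0.00). *Srebf2* differed by -0.02 (95% interval -0.23 to 0.18). *Scap* was the only member whose knockdown values all lay above its controls (11.50, 11.41 and 11.48 against 11.38, 11.26 and 11.32), with a gap of 0.03 and a difference of 0.14. *Insig1*, itself a well-known SREBP target, and *Insig2* differed by 0.14 and -0.16, and both intervals included 0. All of these but *Srebf1* did not pass the variance filter. *Stard4*, a carrier of cholesterol between membranes, differed by 0.07, with 10.63, 10.21 and 10.43 in the controls and 10.33, 10.37 and 10.77 in the knockdown.

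The members shared an order of the replicates within each group. For 22 of the 33 the range of the controls was wider than the difference between the group means (66.7%), as it was for 75.6% of all named genes. Control replicate 2 was the lowest control for 29 of the 33 members (87.9%), against 43.3% of all named genes. Knockdown replicate 3 was the highest knockdown array for 29 members, against 34.5% of all named genes. Both held for 28 members (84.8%), for 19.5% of all named genes and for 29.7% of the 4985 named genes with the highest means, where most members lie. From squalene synthesis to cholesterol both held for 11 of 11 genes, and among mevalonate and isoprenoid genes for 5 of 6. *Lss* is an example, with 13.23, 12.62 and 12.83 in the controls and 12.58, 12.52 and 13.00 in the knockdown: its highest and lowest controls were further apart than its group means. The exceptions to the order were *Idi1*, *Scap*, *Acaca*, *Fasn* and *Fads2*. The median difference between control replicates 1 and 2 was 0.21 over the members and 0.06 over all named genes, and knockdown replicate 3 stood above the mean of the other 2 knockdown arrays by a median of 0.21 over the members and by -0.03 over all named genes. Averaged over the 33 members, the knockdown arrays stood at -0.22, -0.22 and 0.02 relative to the control mean, and control replicates 1 and 2 at 0.11 and -0.11. For the desaturases and elongases the knockdown arrays stood at -0.35, -0.32 and -0.08.

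**Figure D4:**
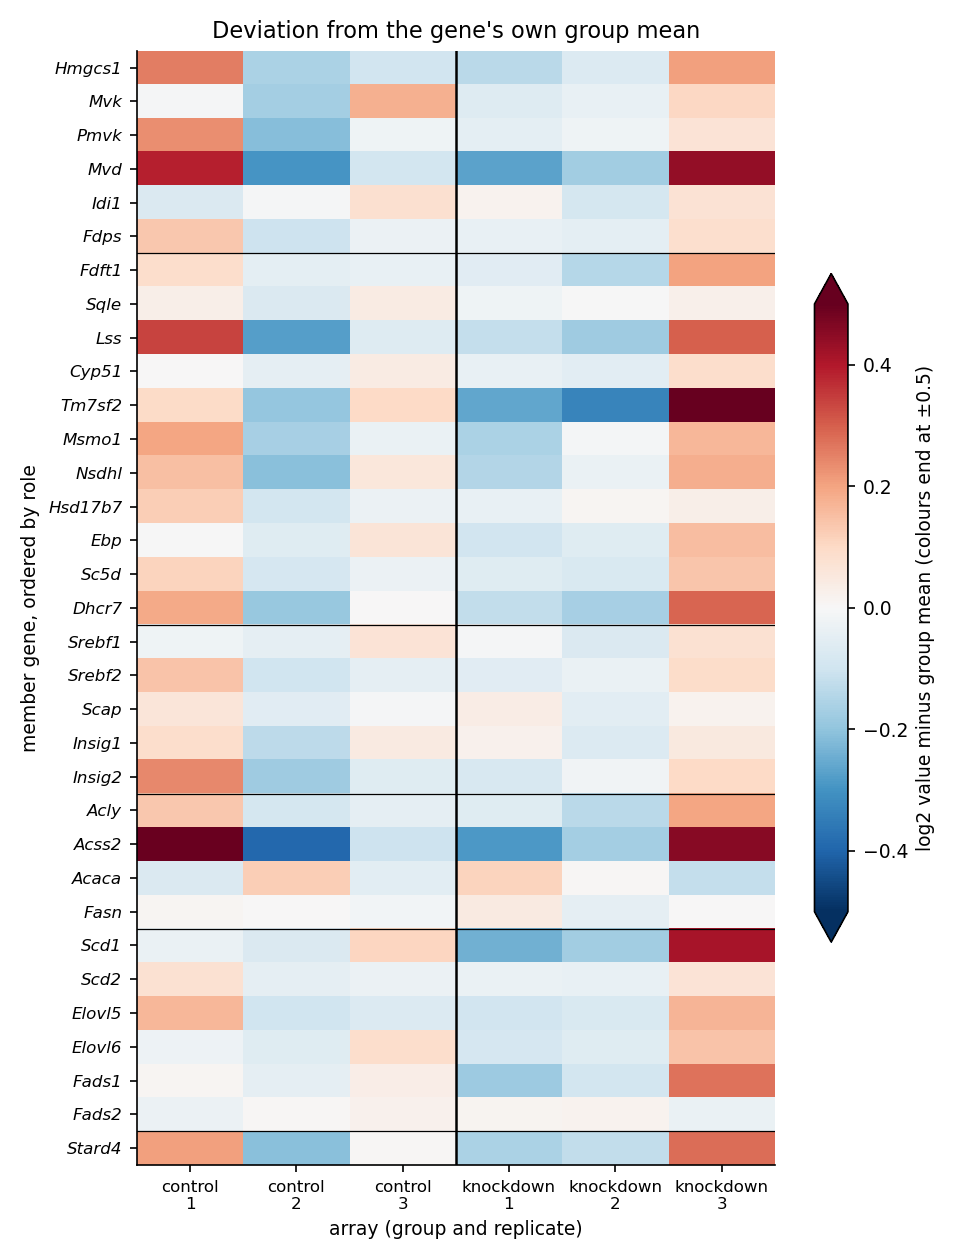
Deviation of each member's log2 value from the mean of its own group (colour, ending at ±0.5), with members ordered by role down the y axis and arrays along the x axis. Control replicate 2 is lowest and knockdown replicate 3 highest in their groups for 28 of the 33 members, including all 11 from squalene synthesis to cholesterol.

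Promoters are shown to set the regulators' known sites beside these values. SREBPs bind sterol regulatory elements, usually next to sites of NF-Y and Sp1, and some E-boxes. RefSeq promoters (GRCm38.p6, 250 bases before to 50 after each annotated start) were found for 26 of the 33 members, 34 promoters in all. None was found for *Fads1*, which fell, or for *Fdps*, *Fdft1*, *Sqle*, *Scd1*, *Scd2* and *Stard4*, so these were not searched. They were searched on both strands for TCACCCCAC (a sterol regulatory element), its looser form TCACNCCAC, which includes it, CCAAT (NF-Y), GGGCGG (Sp1) and CACGTG (an E-box). CCAAT occurred in 67.6% of the member promoters and in 37.4% of all 32851 promoters, GGGCGG in 73.5% and 35.7%, and CACGTG in 20.6% and 7.15%. A gene with several promoters counts more than once in these shares, and its windows can overlap. Both windows of *Scap*, for example, hold the same CACGTG. All 9 genes from squalene synthesis to cholesterol with a promoter held both CCAAT and GGGCGG. TCACCCCAC occurred in 1 member promoter (2.94%), that of *Hmgcs1*, and in 0.551% of all promoters, and the looser form in that same promoter and 1.24% of all. The 250 bases upstream of the start are given 5′ to 3′ along the gene for *Hmgcs1* (chr13:119690101-119690350, + strand), which holds the sterol element, for *Tm7sf2* (chr19:6067851-6068100, - strand), the sterol gene with the largest difference, and for *Elovl6* (chr3:129532136-129532385, + strand), which fell, beside its relative *Elovl5* (chr9:77917115-77917364, + strand). Capitals mark matches to any of the motifs on either strand (CCAAT reads ATTGG and GGGCGG reads CCGCCC on the other strand).
Hmgcs1: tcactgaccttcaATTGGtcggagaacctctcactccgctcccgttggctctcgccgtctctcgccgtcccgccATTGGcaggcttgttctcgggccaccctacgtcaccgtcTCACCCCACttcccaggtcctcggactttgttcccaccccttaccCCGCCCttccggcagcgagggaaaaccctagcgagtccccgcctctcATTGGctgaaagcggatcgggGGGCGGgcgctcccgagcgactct
Tm7sf2: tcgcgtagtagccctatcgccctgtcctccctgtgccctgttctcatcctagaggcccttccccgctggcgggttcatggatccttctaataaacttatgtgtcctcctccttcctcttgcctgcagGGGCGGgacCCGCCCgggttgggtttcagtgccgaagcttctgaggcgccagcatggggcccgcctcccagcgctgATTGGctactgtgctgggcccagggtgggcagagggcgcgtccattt
Elovl5: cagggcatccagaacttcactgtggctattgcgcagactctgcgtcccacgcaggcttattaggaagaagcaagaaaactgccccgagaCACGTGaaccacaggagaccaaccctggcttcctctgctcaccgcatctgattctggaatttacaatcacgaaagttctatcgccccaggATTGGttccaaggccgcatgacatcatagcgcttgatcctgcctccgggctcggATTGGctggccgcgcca
Elovl6: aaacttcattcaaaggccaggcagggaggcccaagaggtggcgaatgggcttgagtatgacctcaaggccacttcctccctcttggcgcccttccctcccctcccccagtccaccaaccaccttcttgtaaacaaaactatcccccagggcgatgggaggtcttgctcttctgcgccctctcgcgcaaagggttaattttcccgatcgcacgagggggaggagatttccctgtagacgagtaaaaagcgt
None of these letters occurred in the *Elovl6* window, which says nothing about sites elsewhere or of other spelling. The *Elovl5* window held 2 CCAAT matches and 1 CACGTG. A match is a string of letters and not a measured binding site.

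Other genes of lipid metabolism were taken from 6 lists, of which 90 of 105 genes were measured. Of these 54 were tested, and 6 fell and 1 rose, where 5.16% of all tested genes fell and 2.39% rose. The list of fatty acid supply, elongation and acyl chain use held 4 of the falls among 32 measured genes, 24 of which were tested. *Agpat2*, an acyltransferase that makes phosphatidic acid for glycerolipids, fell most, from 9.82, 10.02 and 10.19 to 8.98, 9.01 and 9.33. Its log2 fold change of -0.90 (SE 0.14, limma adjusted p = 0.00277) is a 1.87-fold lower level, and it passed whichever array was left out (largest limma adjusted p = 0.0441), but not with all clusters in the test (limma adjusted p = 0.117), where none of the 7 genes was called. *Acsl6*, the acyl-CoA synthetase that activates long-chain fatty acids in neurons, fell from 9.58, 9.56 and 9.68 to 8.96, 8.88 and 9.15 (-0.61, limma adjusted p = 0.0105). *Hacd3*, a dehydratase of the elongation cycle, and *Elovl4*, an elongase of very long chains, fell by 0.45 and 0.44 on the log2 scale (limma adjusted p = 0.0332 and 0.0314). None of these groups overlapped. The median log2 fold change of that list was -0.18, and 25 of its 32 genes had a change below 0.

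Around cholesterol, *Ggps1*, which makes geranylgeranyl diphosphate from the product of *Fdps*, fell from 9.77, 9.67 and 9.65 to 9.01, 9.18 and 9.37 (-0.51, limma adjusted p = 0.0276). It stands in 2 of the lists, with 7 measured genes of the sterol pathway outside the members (6 tested, 5 with a change below 0) and with 10 measured genes that use isoprenoids (4 tested, 7 below 0), and it was the 1 gene called in each. *Abca1*, a cholesterol exporter and liver X receptor target, fell by 0.45 (limma adjusted p = 0.0371, and 0.0509 with the replicate block) and was the 1 gene called of 8 tested in the efflux list, whose 12 measured genes had a median of 0.02. *Erlin1*, part of the machinery that degrades sterol-sensing proteins in the endoplasmic reticulum, rose from 10.03, 10.23 and 10.19 to 10.68, 10.66 and 10.51 (0.47, limma adjusted p = 0.0319). It was the 1 gene called of 4 tested in its list of 11 measured genes. Those 11 had a median of -0.01, and 6 had a change below 0, among them its relative *Erlin2* (-0.27, limma adjusted p = 0.154). Among 19 measured genes of fatty acid oxidation, 9 were tested and none was called by limma. An unadjusted p under 0.05 was found for 2 of the 19 (10.5%), near the 13.9% of all named genes. The largest differences there were those of the carnitine carrier *Slc25a20* (-0.30, limma adjusted p = 0.125) and of *Cpt1c*, the neuronal carnitine palmitoyltransferase (-0.27, limma adjusted p = 0.265). With 1 array left out, *Acsl6* passed in 4 of 6 fits, *Ggps1*, *Abca1*, *Erlin1* and *Hacd3* in 2 and *Elovl4* in 1. *Elovl4* passed only without knockdown replicate 3, *Hacd3* only without that array or control replicate 1, and *Ggps1*, *Abca1* and *Erlin1* only without that array or control replicate 2. *Acsl6* missed the threshold without control replicate 3 or knockdown replicate 2.

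The arrays were alike in scale, with medians over the named genes between 7.85 and 7.92. The labelled cell type was checked against markers of sympathetic neuroblastoma, of which 10 were measured. In the controls they ranged from *Th*, the first enzyme of catecholamine synthesis (9.37), to *Stmn2*, a neuronal tubulin-binding protein (13.22). All 10 had a change below 0, and *Dbh*, *Th* and *Chgb*, which act in catecholamine synthesis and its secretory granules, fell (-1.09, -0.68 and -0.45). The mean level of the 10 was 11.36 to 11.44 on the control arrays and 10.99 to 11.16 on the knockdown arrays, and its part in the lipid gene changes was not tested. Markers of other cells had control means from 6.14 (*Aqp4*) to 7.83 (*Mbp*) for 7 genes of glia, 4.58 (*Lum*) to 8.09 (*Col1a1*) for 8 of fibroblasts and muscle, 5.75 (*Ptprc*) to 8.05 (*Pecam1*) for 6 of blood and endothelium, and 5.05 (*Fabp4*) to 7.46 (*Plin1*) for 8 of hepatocytes and adipocytes, and 0 of these genes were called by limma or had an unadjusted p under 0.05.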

How the data were processed

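RNA of 3 control and 3 knockdown N2A samples was hybridised to Affymetrix Mouse Gene 1.0 ST arrays (200 ng RNA each). The authors corrected the background and quantile normalised the arrays, and they deposited log2 RMA expression values for 35556 transcript clusters; the submitters' processing notes name RMA and limma, with versions not given in the sources used here. Quantile normalisation removes any change shared by all genes, and RMA shrinks differences of weak probes. Names came from GEO's platform annotation, which can be old: 21789 clusters had 1 symbol, and the 1621 with several and 12146 with none were left out. One cluster per gene (highest mean) left 19938 genes, and 19856 of their Entrez identifiers were in the RefSeq table of GRCm38.p6.

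As in the study's methods, genes of little variation were removed before the test, here the lower 50% by interquartile range over the 6 arrays, which left 9969. The groups were compared with limma 3.58.1 under R 4.3.3 (lmFit, then eBayes). The p-values were adjusted by Benjamini-Hochberg over these genes, with a threshold of 0.05. Differences, standard errors and intervals (95%) of genes that did not pass the filter come from a fit to all 19938 genes. "Rose" and "fell" are used of genes past the threshold. The steps were tested on simulated data in which each gene varied independently. Such data lack the order of replicates that the members shared, so they do not show how the calls behave under it. The number of arrays limits the precision. The labels call the samples replicates, and the study's methods call them biological.

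The members and the 6 related and 5 marker lists were chosen with earlier results of these data known. Named were all members, the called genes of each related list (or the 2 largest differences where none was called), and the highest and lowest gene of each marker list. The other called markers, *Dbh* and *Chgb*, and the related genes *Lbr* and *Erlin2*, which were not called, were named after their values were seen. Alternatives were other filters, all clusters kept, the mean of a gene's clusters, median centring, array weights, a trended robust prior, a replicate block and leaving out each array.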

Additional observations from a re-analysis of the deposited data

How the results depend on the processing

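The count of 2 members that fell was 5 with a filter by sample variance, 4 with a trended robust prior, 4 with the replicate block, 14 with array weights (which also gave 1 rise) and 0 with all transcript clusters kept. With 1 array left out it lay between 0 (control replicate 3, knockdown replicate 1 or 2) and 5 (knockdown replicate 3), and no member rose. The 238 rises and 514 falls among all genes became 2896 and 2665 with array weights, 0 and 0 with all clusters kept (limma), and between 25 and 334 rises and between 87 and 905 falls with 1 array left out. Rises numbered 360 with the trended robust prior and 401 with a filter on low means. The 1 rise and 6 falls of related genes became 5 and 36 with array weights and 0 and 0 with all clusters kept. There were 2 rises without the variance filter, with the filter on low means and with the trended prior, and between 0 and 2 rises and 1 and 10 falls with 1 array left out. The causes were not tested.

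The other filters, all clusters kept, the trended prior and the block leave a gene's change as it is. Where it could move (centred arrays, the mean of a gene's clusters and 1 array left out), 22 of the 33 members kept its sign. Array weights were fitted to the 21 tested members. *Scd2* turned to 0.018 with centred arrays and *Stard4* to -0.030 with array weights. With 1 array left out, changes near 0 took both signs: *Hmgcs1* -0.041 to 0.19, *Mvk* -0.16 to 0.017, *Pmvk* -0.19 to 0.027, *Mvd* -0.40 to 0.0094, *Fdps* -0.036 to 0.084, *Msmo1* -0.17 to 0.013, *Dhcr7* -0.22 to 0.021, *Srebf2* -0.074 to 0.047, *Fasn* -0.045 to 0.0011, *Scd2* -0.037 to 0.035 and *Stard4* -0.073 to 0.17. Samples with equal replicate numbers did not stand out as pairs. Their deviations from the group means correlated at -0.29, 0.06 and 0.08, against -0.32 to 0.37 for samples with different numbers. With 3 arrays per group these correlations cannot exclude pairing. With the replicate block *Tm7sf2* and *Scd1* also passed (limma adjusted p = 0.0294 and 0.0303) and *Abca1* no longer did (0.0509). The block changed no other call of a member or of a related gene called in the main fit. The count of member promoters with the sterol element was 1 with either form.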
